A study of Mus musculus with 15 samples.

Results

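Arginine metabolism was followed through 8 genes, Slc7a2, Nos2, Ass1, Asl, Arg1, Arg2, Otc and Cps1, chosen by name as the genes that carry arginine into the cell, turn it into nitric oxide or urea, or rebuild it. All array probes that the deposited accession assigned to these genes were taken. Of the 8 genes, 7 had a probe and 8 probes were found among 41174 on the array, since Otc had 2 probes. No probe was matched to Cps1, and it is not analysed here. RNA from 15 mouse tissue samples was hybridised, 1 sample per Agilent array, in 5 groups of 3. The cardiac allografts were hearts of C57BL/10 (B10) donors placed in the abdomen of sex-matched CBA recipients and taken on postoperative day 5 (POD5). The hepatic allografts were livers of B10.BR (BR) donors placed orthotopically in B10.D2 (D2) recipients and taken at POD5 or POD8. The mice purchased for the study were male, and no genetic modification was described for any group. Surgery was done under isoflurane anaesthesia with oxygen, and no other drug was described. The controls were 3 cardiac and 3 hepatic tissues that the labels call normal, although the study elsewhere speaks of isografts, so that a transplanted control and an untouched organ cannot be told apart here. The strain of the controls and the age of the mice were not given in the sources used here, and separate individuals are named for the PCR assay of these grafts but not array by array, so P-values measure the spread between these samples.

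Arginine enters macrophages and many other cells through cationic amino acid transporters, among them the product of Slc7a2, which cytokines can induce. Inducible nitric oxide synthase (Nos2), classically made by macrophages exposed to interferon gamma and microbial products, converts arginine to nitric oxide and citrulline, and the pair Ass1 and Asl turns citrulline back into arginine. The same pair works in the hepatic urea cycle, where Cps1 and Otc make citrulline in mitochondria and Arg1 releases urea, and arginase in macrophages competes with Nos2 for arginine.

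Levels are given as log2 normalized signal, and 1 unit is a doubling. A probe was counted as measured in an array where the scanner software scored it well above background. The heart allografts, the heart controls and most hepatic arrays lay on different slides and were scanned on different days, so in the heart the slide, the scan day and the group cannot be told apart. The third hepatic POD5 allograft was the exception, lying on the slide of the heart allografts and scanned with them. The hepatic POD5 allografts shared no slide with the hepatic controls or the POD8 allografts. In those comparisons too, the slide and the group cannot be told apart. The hepatic controls were the dimmest arrays, with a 75th percentile of deposited signal of 87.7 to 216 against 319 to 1154 on the others. Of the hepatocyte markers Alb, Apoa1 and Ttr were not well above background on any heart array, while Ahsg and Tat were on all 6, Ahsg at 9.21 to 12.65 in the controls and 7.41 to 8.46 in the allografts and Tat at 5.20 to 5.33 and 6.74 to 7.23. Cyp2e1 was well above background on 2 heart controls and 2 cardiac allografts, reaching 9.41 and 6.18. Apob was so on 1 heart control, reaching 5.32 in that group. Of the cardiomyocyte markers Myh6, Myl2 and Ryr2 were not well above background on any hepatic array, while Actc1 and Tnni3 were on all 9. Tnnt2 was so on 2 hepatic POD5 allografts and 2 hepatic controls, and Pln on 1 POD8 allograft and 1 hepatic control. In the heart controls the summed signal of 7 hepatocyte markers was 4968, 647 and 6603, most of it Ahsg. The second control, the lowest, was also the lowest in Arg1, Arg2, Slc7a2 and Ass1, but not in Asl. It was likewise the lowest in the marker sums of macrophages, alternatively activated macrophages, neutrophils, endothelial cells, red blood cells and smooth muscle. In the sums of T cells and cardiomyocytes it was not the lowest. In the cardiac allografts the hepatocyte sum was 325 to 531. The part of these cell types in the values of these genes was not tested.

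In the cardiac allografts at POD5, 4 of the 7 genes with a probe rose over the controls and none fell (limma with Benjamini-Hochberg adjustment over all probes, at 0.05). These were Nos2, Ass1, Slc7a2 and Asl, the synthase, both enzymes that regenerate its substrate and the transporter. Over all 41025 probes tested, 15.6% rose and 16.4% fell in the same comparison. The median log2 difference of the 7 genes was 1.18, beside 0.02 over all probes. On 6 of the 7 genes every allograft lay above every control, as it did for 29.1% of all probes, although for Otc, 1 of these 6, both groups were below background. In the hepatic allografts limma called none of the 7 genes at either time, where 2.38% of all probes rose and 0.778% fell at POD5 and 3.53% rose and 1.44% fell at POD8. At an unadjusted P-value under 0.05, 1 of the 7, Arg1, was higher at each hepatic time, as were 9.85% of all probes at POD5 and 10.2% at POD8, and the methods' t-test and the study's standardized fold change (SFC) called none there after correction.

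**Figure D1:**
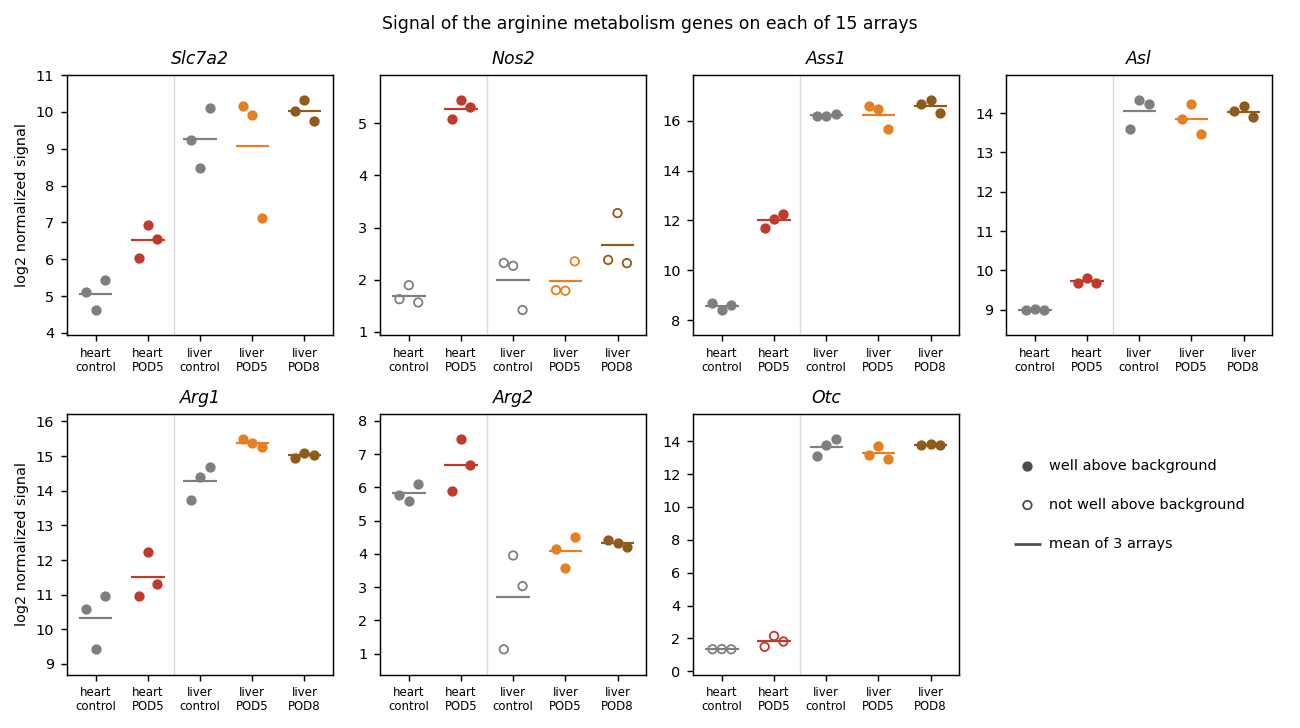
Log2 normalized signal (vertical axis) of each gene on each of the 15 arrays, by group; filled points were well above background, open points were not, and bars are means of 3 arrays. Nos2 was well above background on the 3 cardiac allografts and on no other array, and Ass1 lay between 11.69 and 12.24 there against 8.40 to 8.68 in the heart controls.

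Slc7a2 encodes an arginine transporter that cytokines can induce. In the heart controls its log2 signal was 5.11, 4.62 and 5.44, and in the cardiac allografts it was 6.03, 6.94 and 6.56. Each allograft lay above each control. The difference was 1.45 (SE 0.32), or 2.74-fold (95% confidence interval 1.58 to 4.76, adjusted P = 0.0218). This call was lost when the third allograft (adjusted P = 0.0677), the first control (0.069) or the second control (0.06) was left out, and likewise in a fit of all 5 groups (0.131) and under the methods' t-test with Benjamini-Hochberg adjustment (0.0547). With normexp the log2 difference was 0.67 (adjusted P = 0.0183). In the liver Slc7a2 was 9.25, 8.48 and 10.10 in the controls and 10.03, 10.33 and 9.75 at POD8. At POD5 it was 10.17, 9.92 and 7.11, and the low value belonged to the third allograft, the array that shared its slide with the hearts. The hepatic groups overlapped at both times. The POD5 difference was -0.21 (95% confidence interval -2.58 to 2.16), and without that array it was 0.77 (adjusted P = 0.502).

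Nos2, whose probe was printed 10 times on each array, was measured only in the cardiac allografts. Its log2 signal was 5.07, 5.45 and 5.31 in the 3 cardiac allografts and 1.63, 1.90 and 1.56 in the heart controls. In deposited units the median of the 10 spots was 60.2, 39.0 and 68.0 on the allografts and 4.72, 5.66 and 3.297 on the controls, and on no heart control did a single spot exceed 8.41. The lowest spot on any cardiac allograft, 33.4, lay above all control spots. Because no control was above background, the fold has only a bound, taken against the higher of the control's own value and the lowest signal scored above background on its array. On that scale Nos2 was at least 7.003-fold above the heart controls on the cardiac allografts (log2 difference 3.58, SE 0.15, adjusted P = 0.000504). The size rests on the background treatment, since a normexp correction with an offset gave a log2 difference of 0.71 (adjusted P = 0.000941). Each fold given below as at least some value is a bound of this kind, and holds only under the main background treatment.

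In the liver Nos2 was not well above background on any of 9 arrays. Its log2 signal was 2.32, 2.27 and 1.42 in the controls, 1.80, 1.79 and 2.35 at POD5 and 2.38, 3.28 and 2.32 at POD8. The groups overlapped, and no fold is given because both sides were below background. The lowest signal of any probe scored well above background was between 2.915 and 4.56 on these 9 arrays, under the 5.07 of the lowest cardiac allograft. A probe above that signal could still go unscored. Pecam1, at 4.67 or higher on all hepatic controls, was scored on only 2 of them. Whether Nos2 at 5.07 would have been scored on a hepatic array is therefore not known.

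Ass1 encodes argininosuccinate synthase, the step that joins citrulline to aspartate. Its log2 signal was 8.68, 8.40 and 8.62 in the heart controls and 11.69, 12.08 and 12.24 in the cardiac allografts. The groups were more than 3 units apart and neither spread over more than 0.6. The difference was 3.44 (SE 0.17), or 10.8-fold (95% confidence interval 7.98 to 14.7, adjusted P = 0.000647). In the liver Ass1 was among the brightest probes of the array, at 16.21, 16.20 and 16.28 in the controls, 16.61, 16.46 and 15.69 at POD5, and 16.67, 16.85 and 16.32 at POD8. All 3 POD8 allografts lay above all controls, by 0.39 on average (95% confidence interval -0.03 to 0.80, adjusted P = 0.252). The POD5 values lay on both sides of the controls, with a difference of 0.03 (95% confidence interval -0.65 to 0.70, adjusted P = 0.978). The value below the controls belonged to the third allograft, the array on the slide of the heart allografts. Without that array the POD5 difference was 0.31. No Ass1 spot was marked saturated, and the hepatic values ranked between 55 and 216 from the top of the array.

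The start region of Ass1 is shown because this gene had the largest fold measured on both sides, and that of Otc because it is the member that the heart lacked. RefSeq windows from 250 bases before to 50 after the start were at hand for these 2 of the 8 genes (GRCm38.p6, both on the plus strand), at chr2:31470020-31470319 for Ass1 and chrX:10252055-10252354 for Otc, printed 5′ to 3′ with motif matches in capitals.
Ass1: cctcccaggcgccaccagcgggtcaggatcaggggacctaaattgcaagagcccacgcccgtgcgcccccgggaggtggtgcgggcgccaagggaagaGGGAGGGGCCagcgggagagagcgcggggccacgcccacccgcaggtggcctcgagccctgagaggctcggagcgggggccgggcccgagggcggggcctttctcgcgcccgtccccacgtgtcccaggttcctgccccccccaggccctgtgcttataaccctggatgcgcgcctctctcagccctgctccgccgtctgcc
Otc: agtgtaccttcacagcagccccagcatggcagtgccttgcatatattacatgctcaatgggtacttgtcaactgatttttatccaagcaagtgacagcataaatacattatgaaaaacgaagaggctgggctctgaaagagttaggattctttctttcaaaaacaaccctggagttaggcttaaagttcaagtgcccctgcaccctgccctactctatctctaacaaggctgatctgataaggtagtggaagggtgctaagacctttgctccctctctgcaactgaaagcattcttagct
The 6 motifs searched on both strands were NF-kappaB (GGGA, any 4 bases, then CC), IRF (GAAA, any 2 bases, then GAAA), GAS (TTCNNNGAA), C/EBP (TTGCNNAA), HNF4 (CAAAGTCCA) and the TATA box (TATAAA). Ass1 held 1 of them, an NF-kappaB match from position 99 to 108 of the window, and Otc held none. Of all 32851 windows in the table, 20.7% held the NF-kappaB letters, 3.44% the IRF, 8.3% the GAS, 10.8% the C/EBP, 0.475% the HNF4 and 13.6% the TATA box letters. Guanine and cytosine made up 74% of the Ass1 window and 44.3% of the Otc window. A match describes letters and not a site in use.

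Asl, argininosuccinate lyase, completes the return to arginine. Its log2 signal was 8.995, 9.018 and 9.005 in the heart controls and 9.68, 9.82 and 9.69 in the cardiac allografts. The controls were nearly identical and all allografts lay above them. The rise was small, 0.72 (SE 0.08), or 1.65-fold (95% confidence interval 1.43 to 1.91, adjusted P = 0.00334). In the liver Asl was 13.60, 14.34 and 14.23 in the controls, 13.85, 14.24 and 13.47 at POD5 and 14.05, 14.17 and 13.89 at POD8, with overlap throughout. The differences were -0.20 (95% confidence interval -0.95 to 0.54) and -0.02 (-0.60 to 0.56). The lowest POD5 value again belonged to the third allograft, without which the POD5 difference was -0.012.

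Arg1, the cytosolic arginase of hepatocytes and of alternatively activated macrophages, did not pass the test in either organ. In the heart it was 10.59, 9.42 and 10.96 in the controls and 10.97, 12.23 and 11.32 in the allografts. The groups did not overlap, but the lowest allograft and the highest control were only about 0.01 apart. The 3 controls stood in the same order in Arg1 as in the marker sums of hepatocytes, macrophages, alternatively activated macrophages, neutrophils and red blood cells. The sums of T cells, cardiomyocytes, endothelial cells and smooth muscle did not follow that order. All allografts were below the controls in the hepatocyte sum and above them in the macrophage sum. The part of these cells in the Arg1 values was not tested. The Arg1 difference was 1.18 (95% confidence interval -0.13 to 2.50, adjusted P = 0.143), and a fit of all 5 groups called it (adjusted P = 0.0422). In the liver Arg1 was 13.75, 14.40 and 14.70 in the controls, 15.49, 15.39 and 15.25 at POD5, and 14.95, 15.10 and 15.04 at POD8. Every hepatic allograft lay above every hepatic control, and every POD5 allograft above every POD8 allograft. The difference from the controls was 1.09 at POD5 (95% confidence interval 0.41 to 1.78, unadjusted P of limma 0.00871, adjusted P = 0.108) and 0.74 at POD8 (0.08 to 1.41, adjusted P = 0.185). On the 1 slide that held 2 POD8 allografts and 2 controls the difference was 0.95 (adjusted P = 0.215), and with scan day as a block the POD5 difference was 1.16 (adjusted P = 0.196). From POD5 to POD8 it differed by -0.35 (-0.62 to -0.08, adjusted P = 0.309). Groups that do not overlap are common on these arrays, where 1 of the 7 genes lay entirely above the hepatic controls at POD5, beside 12.4% of all probes, and 3 of the 7 (Arg1, Arg2 and Ass1) at POD8, beside 12.9%. Entirely lower at POD8 than at POD5 were Arg1 alone of the 7 genes and 10.4% of all probes.

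Arg2, the mitochondrial arginase, was measured in the heart and at low signal in the hepatic allografts. In the heart it was 5.77, 5.58 and 6.11 in the controls and 5.90, 7.45 and 6.68 in the allografts, where the first allograft lay within the controls. The difference was 0.86 (95% confidence interval -0.19 to 1.91, adjusted P = 0.175), and without the first allograft it was 1.25 (adjusted P = 0.0486). In the liver Arg2 was well above background on all 6 allografts and on none of the 3 controls. It was 4.15, 3.57 and 4.51 at POD5 and 4.43, 4.34 and 4.20 at POD8, against 1.13, 3.95 and 3.03 in the controls. The controls were spread over almost 3 units, the lowest being the dimmest array of the study. The differences of 1.37 at POD5 (adjusted P = 0.368) and 1.62 at POD8 (adjusted P = 0.276) did not pass, and no bound on the fold above 1 could be given.

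Otc, ornithine transcarbamylase, is a mitochondrial enzyme of the hepatic urea cycle. Both of its probes were below background on all 6 heart arrays and far above it on all 9 hepatic arrays. The brighter probe gave 13.09, 13.75 and 14.13 in the hepatic controls, 13.19, 13.73 and 12.89 at POD5, and 13.79, 13.83 and 13.76 at POD8. The second probe gave 10.58, 12.02 and 12.41, then 11.85, 12.01 and 10.76, then 12.37, 12.48 and 12.17. On both probes the allografts overlapped the controls, the third POD5 allograft was the lowest of its group, and the POD8 allografts lay closest together. The brighter probe differed from the controls by -0.39 at POD5 (95% confidence interval -1.27 to 0.50, adjusted P = 0.577) and by 0.14 at POD8 (-0.57 to 0.84, adjusted P = 0.797).

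**Figure D2:**
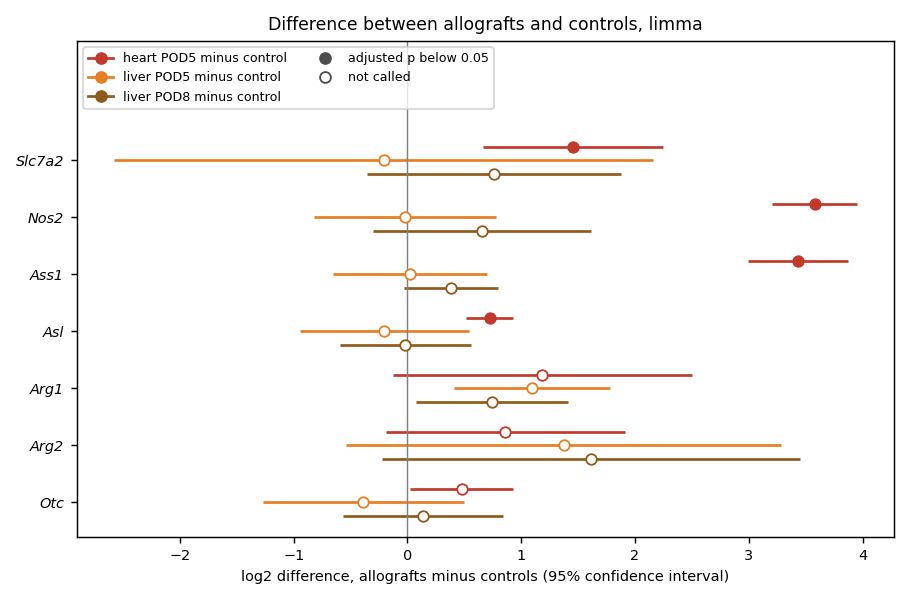
Log2 difference of allografts minus controls (horizontal axis) with 95% confidence intervals for each gene in the 3 comparisons with controls, 3 arrays against 3; filled points passed an adjusted P-value of 0.05. The 4 filled points, Slc7a2, Nos2, Ass1 and Asl, are all cardiac, and Nos2 and Ass1 lie beyond 3.

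Whether the responses at POD5 differed between the organs was tested as the cardiac difference minus the hepatic difference. It was 3.41 for Ass1 (95% confidence interval 2.66 to 4.16, adjusted P = 0.000766). For Nos2 the fitted value was 3.60 (adjusted P = 0.000833), but 3 of its 4 groups were below background, so its size rests on floor values and ran from 0.67 with normexp to 5.24 with 75th percentile scaling. These 2 of the 7 genes passed, both higher in the heart, where 6.41% of all probes were higher and 7.26% lower. Asl (0.93, 0.21 to 1.65, adjusted P = 0.0851) and Slc7a2 (1.67, -0.67 to 3.999, adjusted P = 0.309) were not shown to differ between the organs. For Arg1 the estimate was 0.09 (-1.29 to 1.46), an interval wide enough for more than a doubling either way. The organ and the strains of donor and recipient changed together and cannot be told apart. Between POD5 and POD8 in the liver limma called none of the 7 genes, and 0% of 41165 probes rose and 0% fell, with 5299 probes at an unadjusted P-value under 0.05, and among the 7 genes 1, Arg1, at that level.

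The levels of the members were also compared between the control organs. In the heart controls 5 of the 7 genes were lower than in the hepatic controls and 1 was higher, where 22.7% of all probes were lower and 25.5% higher. Otc was at least 2335-fold lower by its brighter probe and at least 589-fold lower by the second. These sizes rest on the background treatment, since normexp gave a log2 difference of -7.45 for the brighter probe where the main value was -12.31. Ass1 differed by -7.66 (adjusted P = 2.21e-06), Asl by -5.05 (4.76e-05), Slc7a2 by -4.22 (0.00118) and Arg1 by -3.96 (0.00166). Arg2 was higher in the heart, at least 2.80-fold (adjusted P = 0.0184), a call lost when any one heart control was left out (highest adjusted P 0.0667). With normexp its log2 difference was 0.94 (adjusted P = 0.000684). For Ass1 the cardiac allografts, at 11.69 to 12.24, lay below every hepatic array, the lowest of which was 15.69. Of the other genes of the pathway, described in turn further on, 5 of 16 in the transporter, synthase and cofactor list were higher in the heart controls and 8 lower, 2 and 8 of 13 in urea cycle support, 8 and 6 of 18 in the outlets of arginine, 0 and 12 of 12 in liver zonation, and 5 and 6 of 17 among the controlling genes.

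The wider set of arginine transporters, other nitric oxide synthases and enzymes of tetrahydrobiopterin (BH4), the cofactor of nitric oxide synthase, held 16 genes, all with a tested probe. In each comparison 15 of them were well above background on at least 1 array. In this and the later lists a gene called not measured had no probe that could be tested, and counts and medians include genes at background. In the heart 2 of the 16 rose and 5 fell, where 15.6% of all probes rose and 16.4% fell. The median log2 difference of the list was -0.24, beside 0.02 over all probes. Gch1, the rate-limiting enzyme of BH4 synthesis, rose from 7.32 ± 0.05 to 8.59 ± 0.65 (SD, n = 3), a difference of 1.27 (adjusted P = 0.0381). Both enzymes that break down methylated arginines, the natural inhibitors of nitric oxide synthase, fell, Ddah1 by 2.01 (adjusted P = 0.00309) and Ddah2 by 1.01 (adjusted P = 0.0276) on the log2 scale. Endothelial nitric oxide synthase, Nos3, singled out after its values were seen, fell by 0.66 (adjusted P = 0.0194). All 5 endothelial markers (Pecam1, Cdh5, Tek, Kdr and Vwf) fell in the same hearts, with a summed signal of 10660 to 15410 in the controls and 3176 to 3876 in the allografts. Their part in the falls of Nos3, Ddah1 and Ddah2 was not tested. In bulk tissue, fewer cells of a type and less RNA per cell cannot be told apart.

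In the liver the transporter genes that passed were Slc7a1 and Slc7a6. Slc7a1, the constitutive cationic amino acid transporter, was below background in all 3 controls and at least 4.16-fold higher at POD5 (adjusted P = 0.0254) and 3.01-fold at POD8 (adjusted P = 0.0115). Slc7a6, which exchanges cationic and neutral amino acids, was at least 1.67-fold higher at POD5 (adjusted P = 0.0372) and 1.35-fold at POD8 (adjusted P = 0.038). These were the 2 genes of the 16 that passed at each hepatic time, and limma called none lower. Over all probes 2.38% rose and 0.778% fell at POD5, and 3.53% rose and 1.44% fell at POD8. The median differences of the 16 genes were 0.03 and 0.06. The test of the difference at POD5 placed the hepatic response above the cardiac one for Slc7a1 (adjusted P = 0.0049) and Slc7a6 (adjusted P = 0.0113), and gives no exact size because the hepatic controls were below background. Ddah1 (-1.99, adjusted P = 0.0273) and Ddah2 (-1.38, adjusted P = 0.0247) also differed, being lower in the cardiac response.

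The outlets of arginine and ornithine other than urea, to polyamines, proline, creatine and agmatine, held 19 genes, of which Pycr1 was not measured. In the heart 6 of 18 rose and 2 fell, with a median log2 difference of 0.12, where 15.6% of all probes rose and 16.4% fell. Gatm, which starts creatine synthesis from arginine, rose by 1.66 (adjusted P = 0.00167). Srm, spermidine synthase, rose by 1.39 (0.00591), Aldh18a1, which makes the proline and ornithine precursor, by 1.36 (0.0013), Azin2 by 1.302 (0.0174) and Agmat by 1.12 (0.0387). In the liver limma called none of the 18 at POD5, with 6 higher and 4 lower at an unadjusted P-value under 0.05, where 9.85% of all probes were higher and 10.7% lower, and a median of 0.40. At POD8, 1 rose and 1 fell, where 3.53% of all probes rose and 1.44% fell, with a median of 0.18 for the list. Both were under 1 log2 unit and are named as the whole of that count, Sms, spermine synthase, at 0.76 (adjusted P = 0.0361) and Prodh, which degrades proline, at -0.94 (adjusted P = 0.0195). The heart minus liver value at POD5 was 1.53 for Srm (adjusted P = 0.0281), 1.92 for Agmat (0.0131) and -1.96 for Sms (0.0054).

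The support of the urea cycle, its ammonia supply, cofactor synthesis and mitochondrial carriers, held 14 genes, of which Car5a was not measured. In the heart 1 of 13 rose, the urea transporter gene Slc14a2 by 1.22 (adjusted P = 0.0106), and 2 fell, where 15.6% of all probes rose and 16.4% fell. In the liver limma called none of the 13 at POD5 or POD8. At an unadjusted P-value under 0.05 there were 2 higher and 2 lower at POD5 and 1 higher and 1 lower at POD8, beside 9.85% and 10.7% of all probes at POD5 and 10.2% and 11.9% at POD8. The median differences were -0.11 and -0.15, beside -0.07 and -0.08 over all probes. The heart minus liver value at POD5 was -1.31 for the aspartate-glutamate carrier Slc25a12 (adjusted P = 0.00982) and 1.04 for Slc14a2 (0.0313).

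**Figure D3:**
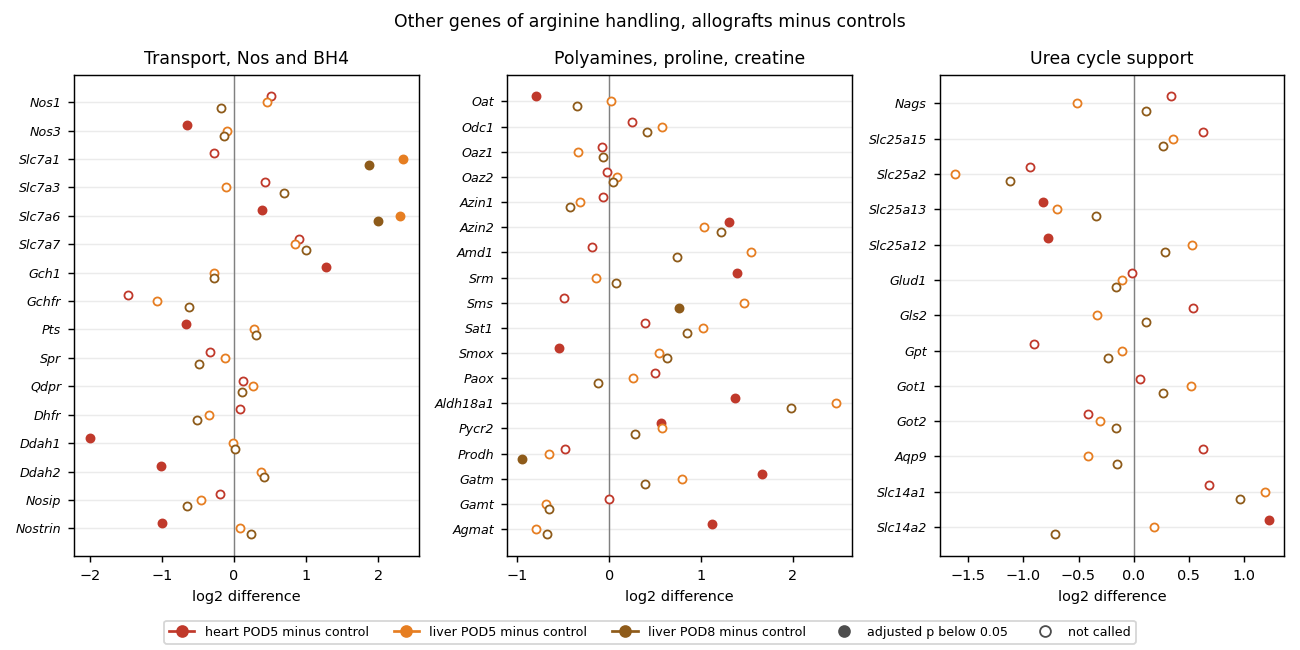
Log2 difference of allografts minus controls (horizontal axis) for the genes of 3 further lists, 1 row per gene, coloured by comparison; filled points passed an adjusted P-value of 0.05. Gatm (1.66) and Ddah1 (-2.01) are the extreme called cardiac points, and the called hepatic points are Slc7a1, Slc7a6, Sms and Prodh.

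Genes that distinguish the periportal zone of the liver, where the urea cycle is most active, from the pericentral zone, where glutamine synthesis takes up ammonia, numbered 14. Pck1 was not measured. In the liver 1 of 13 fell and none rose at each time, where 0.778% of all probes fell at POD5 and 1.44% at POD8. The gene that fell was the glutamate transporter gene Slc1a2, by 1.297 at POD5 (adjusted P = 0.029) and by 0.88 at POD8 (0.0228) on the log2 scale. The median differences were -0.29 and -0.34. In the heart, where zonation has no meaning, 12 were tested, since Slc1a2 was not. Of these 1 rose and 3 fell, beside 15.6% and 16.4% of all probes. Rhbg, an ammonium transporter gene below background in all 3 controls, rose at least 7.70-fold (adjusted P = 0.00192), Glul, glutamine synthetase, fell by 1.0975 (0.0175), and Lgr5 was lower (0.0151), with no fold given because it was below background on all 3 allografts. The cardiac response of Rhbg was above the hepatic one (adjusted P = 0.0125), with no exact size because the heart controls were below background.

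Cytokines and transcription factors known to control Nos2 or Arg1 made up the last list, 18 genes of which Nfkb1 was not measured. In the heart 12 of 17 rose and none fell, with a median log2 difference of 1.13, where 15.6% of all probes rose and 16.4% fell. Ifng, the classical inducer of Nos2, rose from 4.28 ± 0.19 to 14.84 ± 0.75 (SD, n = 3), by 10.56 (adjusted P = 0.000432). Tnf rose by 4.47 (0.00182), Irf1 by 4.21 (0.000515), Irf8 by 3.83 (0.000675) and Il1b by 2.19 (0.00493). In the liver 7 of 17 rose and none fell at each time, where 2.38% of all probes rose at POD5 and 3.53% at POD8. Ifng rose from 4.34 ± 0.70 to 10.13 ± 0.58 at POD5 (5.79, adjusted P = 0.0103) and to 10.52 ± 0.16 at POD8 (6.19, adjusted P = 0.00299). At POD5 Tnf rose by 2.55 (0.047), Irf8 by 2.35 (0.0109), Il1b by 1.60 (0.0425) and Il10 at least 2.60-fold (0.0168). At POD8 Tnf rose by 3.22 (0.0255), Irf8 by 2.76 (0.00346), Il1b by 2.35 (0.0103) and Irf1 by 2.12 (0.0317). The heart minus liver value at POD5 was 4.77 for Ifng (adjusted P = 0.00247), 2.49 for Irf1 (0.00439), 1.48 for Irf8 (0.0117), -1.40 for Ifngr1 (0.00656), 1.33 for Il13 (0.0259) and 1.13 for Rela (0.0115). In the hepatic allografts Ifng was thus above its controls on arrays where Nos2 was not well above background. The median differences of the 17 genes were 0.70 at POD5 and 0.67 at POD8, beside -0.07 and -0.08 over all probes.

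The cell types that could carry these RNAs were followed through marker lists. The summed signal of 7 macrophage and monocyte markers was 59710 to 78750 in the heart controls and 146300 to 178300 in the cardiac allografts, and in the liver it was 5223 to 13500 in the controls, 37050 to 40480 at POD5 and 43540 to 45800 at POD8. Ly6c2 led the cardiac sums, at 16.62 to 16.96 in the allografts and 14.87 to 15.31 in the controls, whereas Adgre1 (13.37 to 13.64 against 13.44 to 14.01) and Itgam (8.30 to 8.99 against 8.16 to 9.01) overlapped. In the heart 2 of these 7 passed, Ly6c2 (1.71, adjusted P = 0.00202) and Fcgr1 (1.44, 0.00738), and in the liver Ly6c2 and Ccr2 at both times. Cd68 was not measured. Of 5 markers of alternatively activated macrophages 2 fell in the heart, Mrc1 by 3.23 (adjusted P = 0.000346) and Cd163 by 4.47 (0.000185), and limma called none in the liver, with 1 higher and 1 lower at an unadjusted P-value under 0.05 at each time. All 6 T cell markers rose in the heart and 4 of 6 rose in the liver at each time. Neutrophil markers had a summed signal of 33890 to 54310 in the heart controls and 8478 to 34390 in the cardiac allografts, with 1 of 6 higher and 1 lower and Ly6g not measured. Of 7 hepatocyte markers limma called none in the hepatic allografts at either time, with 1 lower at an unadjusted P-value under 0.05 each, and Tf was not measured. The summed hepatocyte signal was 675400 to 708000 in the controls, 674800 to 683400 at POD5 and 631800 to 656900 at POD8, a sum led by Alb and Ahsg, and Alb took the same few values on several arrays because quantile normalization fixes the level of the brightest probes, so no lack of change is read from it. Beside all these marker counts, 15.6% of all probes rose and 16.4% fell in the heart. The hepatic shares were 2.38% and 0.778% at POD5, and 3.53% and 1.44% at POD8. Of 7 cardiomyocyte markers 4 fell in the cardiac allografts. The part of these cells in the changes of Nos2, Ass1, Asl and Slc7a2 was not tested.

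**Figure D4:**
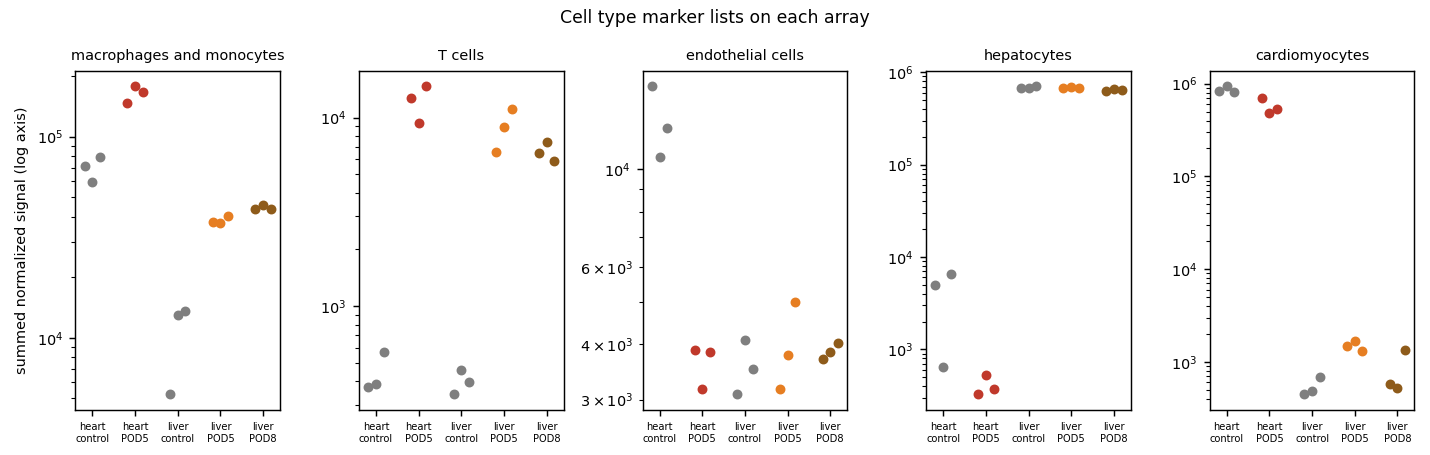
Summed normalized signal (log axis) of the marker genes of 5 cell types on each array, by group. In the cardiac allografts the macrophage sum lies between 146300 and 178300 and the endothelial sum between 3176 and 3876, above and below all heart controls. Ly6c2 led the cardiac macrophage sums, while Adgre1 and Itgam overlapped between cardiac allografts and controls.

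Patterns over the arrays most like each member were ranked by Pearson r of log2 signal among 14921 genes, as a description, since the arrays share organ, slide and batch. Over all 15 arrays Nos2 was nearest to Scamp2 (0.96), Pdxp (0.94) and Myd88 (0.94), the adaptor of Toll-like receptors. Ass1 was nearest to Kynu (0.997), Pglyrp2 (0.9955) and Scly (0.991), and Asl to Itih1, Lcat and Apcs (each 0.998). Otc was nearest to Ugt2a1, Fga and Gls2 (0.9996, 0.9995 and 0.9994), Arg1 to Slc5a11, Ccdc148 and Pygl (each 0.98), Slc7a2 to Pctp (0.99), Sfxn2 (0.97) and Naglu (0.97), and Arg2 to Trem1, Eef1e1 and Fkbp1b (each 0.98). Over the 9 hepatic arrays alone Arg1 was nearest to Bspry, Zfp52 and Akr1b8 (each 0.99), Arg2 to Pstpip2 (0.99), Cfp (0.99) and Fam122b (0.98), and Slc7a2 to genes that include Srrt (0.97) and Meak7 (0.97). Otc was nearest to Ugt2a1 (0.99), Etfdh (0.96) and Serpina3j (0.96), Ass1 to Map3k7, Vps37c and Mapk13 (each 0.95), and Asl to Cav1, Ces2a and Marchf2 (each 0.96). For Nos2, below background on those arrays, the nearest were Raver1 (0.92), Cfap36 (0.90) and Tbc1d4 (0.87).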

How the data were processed

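RNA of 15 samples was measured on Agilent 1-colour arrays. The authors deposited Feature Extraction (10.5.1.1) files, whose processed signal is an intensity already corrected for background, with a flag for signal well above background. The header of the files names the mouse build mm9. Control spots and outlier-flagged spots were left out, spots of a probe averaged, and log2 of the deposited intensity quantile-normalized over 15 arrays. Median spot and background intensities, also deposited, served the normexp alternative (offset 50). Accessions in the files were matched without version to RefSeq (GRCm38.p6), which named 64.8% of probes. Members and lists were chosen with earlier results of these data known. A gene was represented by its brightest probe. Each comparison was fitted with limma 3.58.1 in R 4.3.3 with no covariate, with Benjamini-Hochberg adjustment at 0.05, tested on simulated data. Named from the lists were called genes with an absolute log2 difference of at least 1, up to 6 per list and comparison (between the control organs the lists are given as counts), and for patterns the 3 highest correlations. Some genes that this rule names are not reported here. Alternatives were other scalings, filters, blocks, tests and leaving out each array. The authors' SFC (bin 1000) and t-test were recomputed from the files. Replicate numbers did not pair the samples. With 3 arrays a group, their number limits the precision.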

Additional observations from a re-analysis of the deposited data

Results flagged for a closer look

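The POD5 responses of 2 genes differed between the organs in the test of the difference itself. The cardiac minus hepatic value was 3.60 for Nos2 and 3.41 for Ass1 on the log2 scale, and both passed in all 21 alternatives. The Nos2 value has no exact size, since 3 of its 4 groups were below background, and it ran from 0.67 with normexp to 5.24 with 75th percentile scaling. Donor and recipient strains differ between the organs as well, and in the heart the slide and scan day cannot be told apart from the group. In the liver at POD5 the slide cannot be told apart from the group either.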

How the results depend on the processing

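On the hepatic controls 52.5% to 57% of probes were well above background, which limits what can be seen of genes such as Nos2 and Arg2 there. In the heart the count of 4 genes fell to 0 under the methods' t-test and under SFC, each with Bonferroni correction, and to 1, Nos2, under limma with Bonferroni correction (added after seeing the data). Leaving out single arrays gave 3 to 6. In the liver at POD8 normexp called 1 gene, Arg2 (adjusted P = 0.0481). In the control organs the count of 1 higher gene fell to 0 with slide as a random block and ranged from 0 to 1 when single arrays were left out. The count of cardiac responses above hepatic ones rose from 2 to 4 with 75th percentile scaling, which added Asl and Otc. That scaling moved the median of all probes from 0.02 to 0.47 in the heart and from -0.08 to -0.46 in the liver at POD8, and the share of calls that were higher from 48.7% to 74.2% and from 71% to 18.4%. In the control organs it moved that share from 52.9% to 30.9%, and for the difference between organs from 46.9% to 82.3%.

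Values that changed sign were all uncalled. With 75th percentile scaling they were Ass1 (-0.57) at hepatic POD5, Nos2 (-0.0489), Ass1 (-0.14) and Otc (-0.21) at POD8, and Arg2 (0.0946) between organs. With normexp they were Nos2 (0.0331) at POD5, Asl (0.0006) at POD8 and Arg2 (0.23) between organs. With slide as a random block they were Nos2 (0.055) and Ass1 (-0.0242) at POD5. Scan day as a block, added after seeing the data, gave 0.77 and SFC 0.67 for Slc7a2 at POD5. Slide as a block, and the 4 arrays of the shared slide alone (added later), gave 0.14 for Asl at POD8. Leaving out single arrays gave -0.31 to 0.14 for Nos2, -0.15 to 0.31 for Ass1 and -0.76 to 0.77 for Slc7a2 at POD5, -0.24 to 0.12 for Asl and -0.15 to 0.37 for Otc at POD8, -0.0109 to 0.46 for Arg2, -0.0054 to 0.38 for Asl and -0.0078 to 1.53 for Slc7a2 from POD5 to POD8, and -0.36 to 0.41 for Arg1 and -1.14 to 0.28 for Arg2 between organs. The cause of these changes was not tested.

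Samples with the same replicate number did not deviate together (correlations -0.12 to 0.09). With the replicate number as a block, 3 genes passed in the heart, without Slc7a2 (adjusted P = 0.0699), and no other count of the 7 genes changed.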
